A study of Mus musculus with 3 samples.

Results

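Integrins are the transmembrane receptors through which cells hold on to matrix, and 10 of their subunit genes are described here in the healing fracture callus of the mouse. The set was taken by gene symbol from the 32285 genes of the count matrices, and every symbol matched 1 gene. It held 3 collagen-binding alpha subunits (*Itga1*, *Itga10* and *Itga11*), 3 alpha subunits that bind the arginine-glycine-aspartate (RGD) sequence (*Itga5*, *Itga8* and *Itgav*) and 4 beta subunits (*Itgb1*, *Itgb3*, *Itgb5* and *Itgb8*).

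All 3 libraries came from C57BL/6 mice with a femoral fracture and no treatment, 1 library each at day 7, day 10 and day 14. Per the extract protocol, callus freed of marrow was digested with collagenase, and live cells negative for CD45, CD31 and TER119 were sorted for droplet sequencing of transcript 3′ ends. Sex, age and the number of animals in each library were not given in the labels. With 1 library a day no test between days was possible, and sets of cells, which share only 2 libraries of different days in the main comparisons, were compared without a test. Each value carries a 95% interval that covers counting error only, and a difference between days cannot be told apart from a difference between libraries.

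An integrin is a pair of 1 alpha and 1 beta chain, and the pair decides the ligand. Integrins α1, α10 and α11 pair with β1 and take hold of collagens through an extra I domain inserted in the alpha chain. Integrins α5 and α8 pair with β1, and αv pairs with β1, β3, β5 or β8. These receptors read RGD in fibronectin, vitronectin, osteopontin, bone sialoprotein and the latent TGF-β complex, with no I domain in their alpha chain and the metal site of the beta chain at the ligand pocket. In skeletal tissue, α10β1 is known from cartilage and α11β1 from fibroblasts and periosteum.

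The metal-ion site that these classes share or lack can be read in the coding sequence, and it is shown because it is what sets the collagen-binding alpha subunits apart from the RGD-binding ones. A script searched the main coding sequence of each gene in GENCODE M21 (build GRCm38) for codons reading aspartate, any, serine, any, serine. *Itga1*, *Itga10* and *Itga11* had 1 match each, in exon 6 of the transcript, and *Itga5*, *Itga8* and *Itgav* had 0. The 30 bases around each match in the collagen-binding alpha subunits are printed 5′ to 3′ on the coding strand, with the 15 bases of the motif in capitals.
*Itga1*, chr13:115030105-115030134, minus strand: gtcctaGATGGCTCCAACAGCatctacccc
*Itga10*, chr3:96649061-96649090, plus strand: gttttgGATGGCTCCAACAGTatctatccc
*Itga11*, chr9:62735298-62735327, plus strand: gtcttaGATGGCTCCAACAGCatctacccc

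The motif of *Itga1* and *Itga11* was the same in all 15 bases, and that of *Itga10* differed from both at 1 base. Over the 30 bases, *Itga11* differed from *Itga1* at 1 and from *Itga10* at 4. Each beta subunit also had 1 match, and the stretches of *Itgb1*, *Itgb3* and *Itgb5*, the beta chains on which the later results turn, are printed the same way.
*Itgb1*, chr8:128713273-128713302, plus strand: cttatgGATCTCTCCTACTCTatgaaagat
*Itgb3*, chr11:104633463-104633492, plus strand: ttgatgGACCTGTCTTTCTCCatgaaggat
*Itgb5*, chr16:33875867-33875896, plus strand: ctgatgGACCTCTCCCTCTCCatgaaggat

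*Itgb3* and *Itgb5* differed from each other at 4 of the 30 bases, and the stretch of *Itgb1* differed from that of *Itga1* at 16. The genes themselves lie at chr13:114953096-115101964 (*Itga1*), chr3:96645584-96664519 (*Itga10*), chr9:62677826-62783982 (*Itga11*), chr15:103344286-103366763 (*Itga5*), chr2:12106632-12301922 (*Itga8*) and chr2:83724397-83806916 (*Itgav*). The beta genes lie at chr8:128685654-128733200 (*Itgb1*), chr11:104608000-104670476 (*Itgb3*), chr16:33829665-33949338 (*Itgb5*) and chr12:119158022-119238802 (*Itgb8*). The printed stretches lie in coding exons and were not themselves counted, since the libraries read transcript 3′ ends.

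Members were compared in 5 sets of cells, each with 0 unique molecular identifiers (UMIs) of *Ptprc*, the gene of CD45, and a high level of 1 gate gene in CPM, its UMIs scaled to a total of 1000000 UMIs in the cell. The gate genes and their limits were *Postn* (2000 CPM), a matricellular gene of periosteal and fibroblastic cells; *Cnmd* (1000 CPM), a cartilage gene; *Col10a1* (5000 CPM), the collagen of hypertrophic cartilage; *Ifitm5* (500 CPM), a gene of mature osteoblasts; and *Rgs5* (1000 CPM), a gene of pericytes. At day 10 the Postn-high, Cnmd-high, Col10a1-high, Ifitm5-high and Rgs5-high sets held 1284, 2909, 434, 111 and 51 cells, and at day 14 they held 2025, 1870, 1320, 349 and 186 cells. At day 7 they held 34, 45, 6, 5 and 0 cells.

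The day 7 library stood apart. It was labelled as callus mesenchymal cells, but only 447 of its 7017 cells (6.37%) had 0 UMIs of *Ptprc*, against 6587 of 6593 at day 10 and 9680 of 9853 at day 14. In its gated cells the summed level of 5 neutrophil markers was 1564 to 2067 CPM, against 0.51 to 221 CPM on the later days, so day 7 values are given as description and enter no count. Summed UMIs per library were 55187609, 113618580 and 154573230 at day 7, 10 and 14, and 96 cell barcodes occurred in more than 1 library. Each cell set had the highest summed level of its own 4 or 5 markers on days 10 and 14, for example 7784 and 9588 CPM of *Aspn*, *Ogn*, *Ptn* and *Thbs2* in Postn-high cells. Single markers could differ. From the Col10a1-high list, *Alpl* was higher in Ifitm5-high (1494 and 1166 CPM) than in Col10a1-high cells (863 and 771 CPM), as was *Pth1r* at day 10. From the Rgs5-high list, *Cspg4* was higher in Cnmd-high (370 and 316 CPM) than in Rgs5-high cells (329 and 209 CPM).

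*Itga11*, the alpha chain of a fibroblast collagen receptor, had its highest level in Postn-high cells. Its level there was 146 CPM at day 10 (95% interval 141 to 152) and 175 CPM at day 14 (170 to 180), after 63.8 CPM in the 34 cells of day 7 (44.2 to 89.2). Ifitm5-high cells came next, at 38.7 and 39.0 CPM on days 10 and 14, and Cnmd-high cells had 15.3 and 18.2 CPM. Col10a1-high cells had 3.56 and 5.93 CPM.

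Relative to Postn-high cells on days 10 and 14, the log2 ratio of *Itga11* was -3.26 and -3.27 in Cnmd-high cells, -5.36 and -4.88 in Col10a1-high cells and -1.92 and -2.16 in Ifitm5-high cells. The intervals of these 3 sets were apart on both days. In Rgs5-high cells the gene had 2 UMIs at day 10 (log2 ratio -5.53, -8.57 to -3.67) and 18.5 CPM at day 14. The latter value lies within the interval of the 119 *Ptprc*-positive cells of day 14 (16.6 CPM, 10.5 to 24.9), and so does the 18.2 CPM of Cnmd-high cells, which could not be ordered against Rgs5-high cells on that day. Those *Ptprc*-positive cells also held *Aspn*, a Postn-high marker, at 536 CPM, and the part of free transcripts in these *Itga11* values was not tested.

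*Itga10*, the alpha chain of a chondrocyte collagen receptor, was highest in Ifitm5-high cells rather than in Cnmd-high cells. Its level was 155 CPM in Ifitm5-high cells at day 10 (138.5 to 174) and 148 CPM at day 14 (138 to 159). Cnmd-high cells had 104 CPM (102 to 107) and 93.3 CPM (90.2 to 96.4), so the 2 sets did not overlap on either day. The log2 ratio of Ifitm5-high over Cnmd-high cells was 0.58 (0.40 to 0.74) and 0.67 (0.55 to 0.78).

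The lower end of the *Itga10* order was also the same on both days. Col10a1-high cells had 59.6 and 52.5 CPM and Postn-high cells 35.2 and 28.6 CPM. Rgs5-high cells had 7.95 CPM, from 5 UMIs, and 21.6 CPM. The last value was within the interval of the *Ptprc*-positive cells of day 14, 19.5 CPM (12.8 to 28.35), and its interval (15.6 to 29.2) also overlapped that of Postn-high cells (26.7 to 30.6). At day 7 the gene was at 353 CPM in the 5 Ifitm5-high cells and 175 CPM in the 45 Cnmd-high cells, in the same order as later.

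*Itga1*, whose product with β1 binds basement membrane collagen, was far higher in Rgs5-high cells than in any other set. It reached 912 CPM at day 10 (839 to 990) and 694 CPM at day 14 (657 to 732) in them. Col10a1-high cells were next, at 68.2 CPM (62.4 to 74.5) and 59.5 CPM (56.3 to 62.8). Cnmd-high cells had 21.0 and 17.5 CPM, Postn-high cells 13.3 and 12.7 CPM and Ifitm5-high cells 6.12 and 4.04 CPM.

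The *Ptprc*-positive cells of day 14 had 57.7 CPM of *Itga1* (45.8 to 71.9), an interval that holds the day 14 level of Col10a1-high cells, while those of day 7 had 9.92 CPM. These day 14 cells also held pericyte transcripts, with *Mcam* at 21.6 CPM against 289 CPM in Rgs5-high cells, and the part of free transcripts in the Col10a1-high value was not tested.

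Rgs5-high cells had 68.5-fold and 54.6-fold the *Itga1* level of Postn-high cells on days 10 and 14, and 13.4-fold and 11.7-fold that of Col10a1-high cells. In Col10a1-high cells the log2 ratio over Cnmd-high cells was 1.70 (1.55 to 1.85) and 1.77 (1.63 to 1.90). Markers of other cell types in Rgs5-high cells were *Des* at 265 and 314 CPM and *Emcn* at 60.4 and 33.4 CPM, with *Pecam1* at 3.18 and 8.23 CPM and *Acta1* at 1.59 and 0.514 CPM, while *Cdh5*, *Kdr*, *Myod1* and *Pax7* had 0 UMIs. *Pelo*, a gene on the same strand within the *Itga1* locus, had 57.2 and 60.2 CPM in Rgs5-high cells and 17.7 to 30.6 CPM in the other sets on those days. The panels of members by cell set show that each of the 3 collagen-binding genes was highest in a different set.

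**Figure D1:**
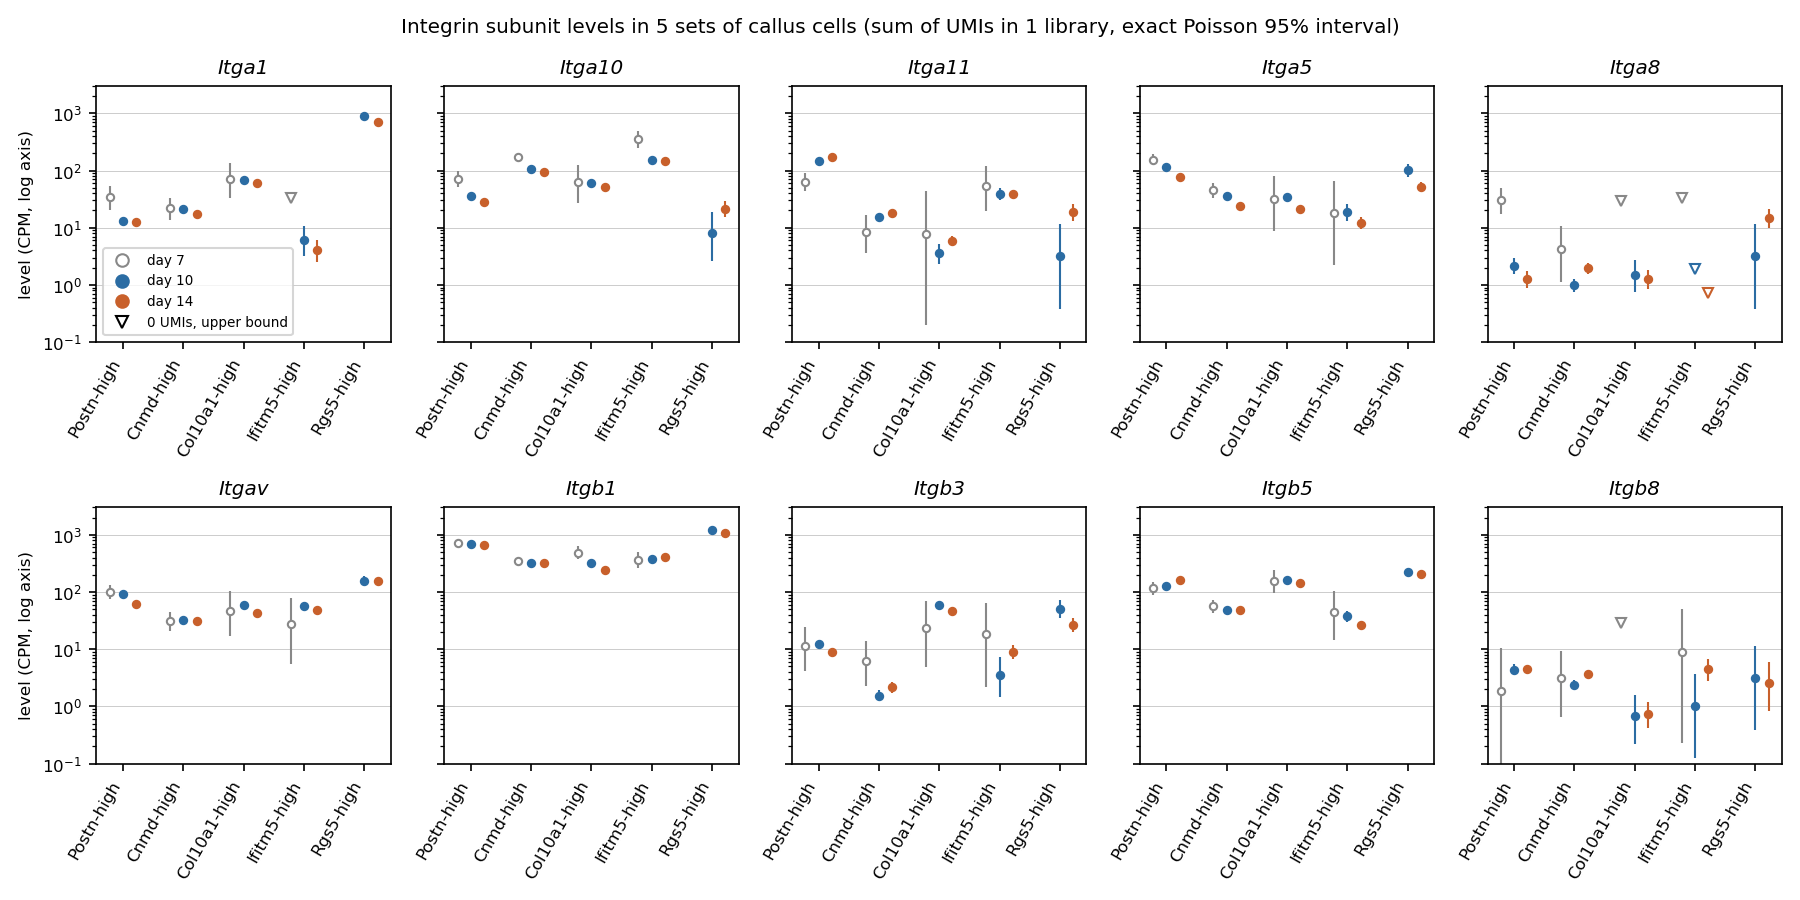
Level of each integrin subunit in CPM (log axis) in the 5 cell sets, from UMIs summed over the cells of a set in 1 library, with day 7 as open grey points, day 10 in blue and day 14 in orange. Bars are exact Poisson 95% intervals and open triangles mark the upper bound where a set had 0 UMIs. *Itga11* is highest in Postn-high cells, *Itga10* in Ifitm5-high cells, *Itga1* in Rgs5-high cells, and *Itgb3* in Col10a1-high cells at day 10 (59.3 CPM) and day 14 (46.4 CPM).

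The make-up of the collagen-binding class, as a share of the UMIs of its 3 genes, had the same leading gene on days 10 and 14 in each set. *Itga11* made up 75.1% of it in Postn-high cells at day 10 (exact binomial interval 73.7% to 76.5%) and 80.9% at day 14 (79.9% to 81.9%). In the 34 Postn-high cells of day 7, 38 of 90 UMIs were *Itga10* and 18 were *Itga1*. *Itga10* made up 74.2% and 72.4% in Cnmd-high cells and 77.6% and 77.5% in Ifitm5-high cells.

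*Itga1* was 98.8% and 94.5% of the class in Rgs5-high cells. In Col10a1-high cells *Itga1* and *Itga10* were near equal, at 51.9% and 45.4% at day 10 and 50.4% and 44.5% at day 14, and *Itga11* was 2.71% and 5.03%. Since a UMI is 1 molecule read at its 3′ end, the shares need no correction for transcript length, but capture can differ between genes and shares are best compared across cell sets.

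Of the RGD-binding alpha subunits, *Itga5*, the alpha chain of the main fibronectin receptor, was highest in Postn-high and Rgs5-high cells. It had 117 CPM (113 to 122) in Postn-high cells at day 10 and 75.6 CPM (72.4 to 78.8) at day 14. Rgs5-high cells had 100.1 CPM (76.9 to 128) and 50.9 CPM (41.4 to 62.0), which overlapped with Postn-high cells at day 10 and not at day 14. Cnmd-high cells had 36.5 and 24.2 CPM and Col10a1-high cells 34.4 and 21.1 CPM.

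Ifitm5-high cells were lowest for *Itga5*, at 18.9 CPM (13.3 to 26.0) and 12.1 CPM (9.31 to 15.5). The *Ptprc*-positive cells of day 14 had 14.4 CPM. *Itga5* was the 1 member that was lower at day 14 than at day 10 in all 5 sets with intervals below 0. The log2 ratio of day 14 over day 10 was -0.63 in Postn-high, -0.59 in Cnmd-high, -0.70 in Col10a1-high, -0.64 in Ifitm5-high and -0.98 in Rgs5-high cells, beside medians over all genes of -0.11 to -0.01.

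*Itgav*, the alpha chain of the vitronectin and osteopontin receptors, varied less between sets. Rgs5-high cells had 156 and 153 CPM on days 10 and 14 and Postn-high cells 90.6 and 62.7 CPM. Col10a1-high cells, at 58.8 and 42.6 CPM, and Ifitm5-high cells, at 56.1 and 48.1 CPM, had overlapping intervals on both days. Cnmd-high cells had 31.9 and 31.3 CPM. The *Ptprc*-positive cells of day 14 had 32.5 CPM of *Itgav* (23.7 to 43.45), an interval that holds the day 14 levels of Cnmd-high and Col10a1-high cells. The part of free transcripts in these levels was not tested. Of the UMIs of the RGD-binding class, *Itgav* made up 74.8% and 79.9% in Ifitm5-high cells, 62.1% and 65.5% in Col10a1-high cells and 60.1% and 69.95% in Rgs5-high cells. Its share was 43.1% and 44.9% in Postn-high cells, and in Cnmd-high cells it was 46.0% at day 10 and 54.5% at day 14.

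*Itga8*, whose product with β1 binds nephronectin, had low levels in all sets on days 10 and 14. It had 44 UMIs in all Postn-high cells of day 10 (2.18 CPM) and 37 at day 14 (1.27 CPM). Ifitm5-high cells had 0 UMIs on both days, with exact Poisson upper bounds of 1.88 and 0.709 CPM. Its highest later level was 14.9 CPM (9.99 to 21.4), from 29 UMIs in the Rgs5-high cells of day 14, and the 34 Postn-high cells of day 7 had 30.0 CPM from 16 UMIs.

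*Itgb1*, the common partner, was the member with the highest level in every cell set on days 10 and 14. Rgs5-high cells had 1216 and 1063 CPM and Postn-high cells 696 and 656 CPM. Ifitm5-high cells had 383 and 406 CPM, Cnmd-high cells 327 and 318 CPM and Col10a1-high cells 317 and 246 CPM. Between day 10 and day 14 it moved by a log2 ratio of -0.36 to 0.08. For each UMI of the 6 alpha genes there were 1.72 and 1.845 UMIs of *Itgb1* in Postn-high cells and 1.03 and 1.115 in Rgs5-high cells, the highest and lowest values, with other sets at 1.35 to 1.71.

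*Itgb3*, the beta chain shared by the αv receptor of osteoclasts and the platelet fibrinogen receptor, was highest in Col10a1-high cells. It had 59.3 CPM (53.9 to 65.2) at day 10 and 46.4 CPM (43.6 to 49.3) at day 14 there. Cnmd-high cells had 1.55 and 2.18 CPM, which gives Col10a1-high cells 38.4-fold and 21.3-fold the level of Cnmd-high cells. Postn-high cells had 12.3 and 8.94 CPM and Ifitm5-high cells 3.57 and 9.04 CPM.

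Rgs5-high cells came close to Col10a1-high cells for *Itgb3* at day 10 (50.9 CPM, 34.8 to 71.8) and were lower at day 14 (26.8 CPM, 19.98 to 35.1), within the interval of the *Ptprc*-positive cells of that day (23.1 CPM, 15.8 to 32.6). The osteoclast markers *Acp5*, *Ocstamp*, *Dcstamp*, *Calcr* and *Atp6v0d2* summed to 6.30 and 6.75 CPM in Col10a1-high cells, with *Dcstamp* and *Calcr* at 0, against 23.9 and 25.8 CPM in Postn-high cells. The platelet markers *Pf4*, *Ppbp*, *Itga2b* and *Gp9* summed to 1.23 and 1.40 CPM, with *Ppbp* and *Gp9* at 0. Neutrophil markers summed to 1.51 CPM at day 10 and 221 CPM at day 14, and *Itgb3* was at 20.8 CPM in the *Ptprc*-positive cells of day 7.

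*Itgb5*, another αv partner and a vitronectin receptor chain, was high in Rgs5-high (227 and 207 CPM), Col10a1-high (164 and 142 CPM) and Postn-high cells (126 and 159 CPM). It was low in Cnmd-high cells (47.8 CPM on both days) and in Ifitm5-high cells (37.7 and 26.3 CPM). The *Ptprc*-positive cells of day 14 had 59.2 CPM of *Itgb5* (47.1 to 73.45). That interval holds the Cnmd-high level and lies above the Ifitm5-high level of that day, and the part of free transcripts was not tested. *Itgb8*, the chain of αvβ8 that acts on latent TGF-β, stayed at or below 4.56 CPM in every set on days 10 and 14. Col10a1-high cells had the lowest *Itgb8* value, 0.685 and 0.724 CPM from 5 and 16 UMIs. At day 10 their interval (0.222 to 1.60) overlapped those of Ifitm5-high (0.123 to 3.68) and Rgs5-high cells (0.385 to 11.5). At day 14 it (0.414 to 1.18) overlapped that of Rgs5-high cells (0.835 to 6.00).

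Among the 3 beta genes that pair with αv alone of these alpha chains, *Itgb5* made up most UMIs in every set. *Itgb3* was 26.5% (24.4% to 28.7%) and 24.5% (23.2% to 25.8%) in Col10a1-high cells. It was 18.1% and 11.3% in Rgs5-high cells, 8.62% and 5.17% in Postn-high cells and 2.99% and 4.05% in Cnmd-high cells. In Ifitm5-high cells it was 8.43% at day 10, from 7 UMIs, and 22.7% (17.2% to 29.0%) at day 14, which overlapped with Col10a1-high cells.

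**Figure D2:**
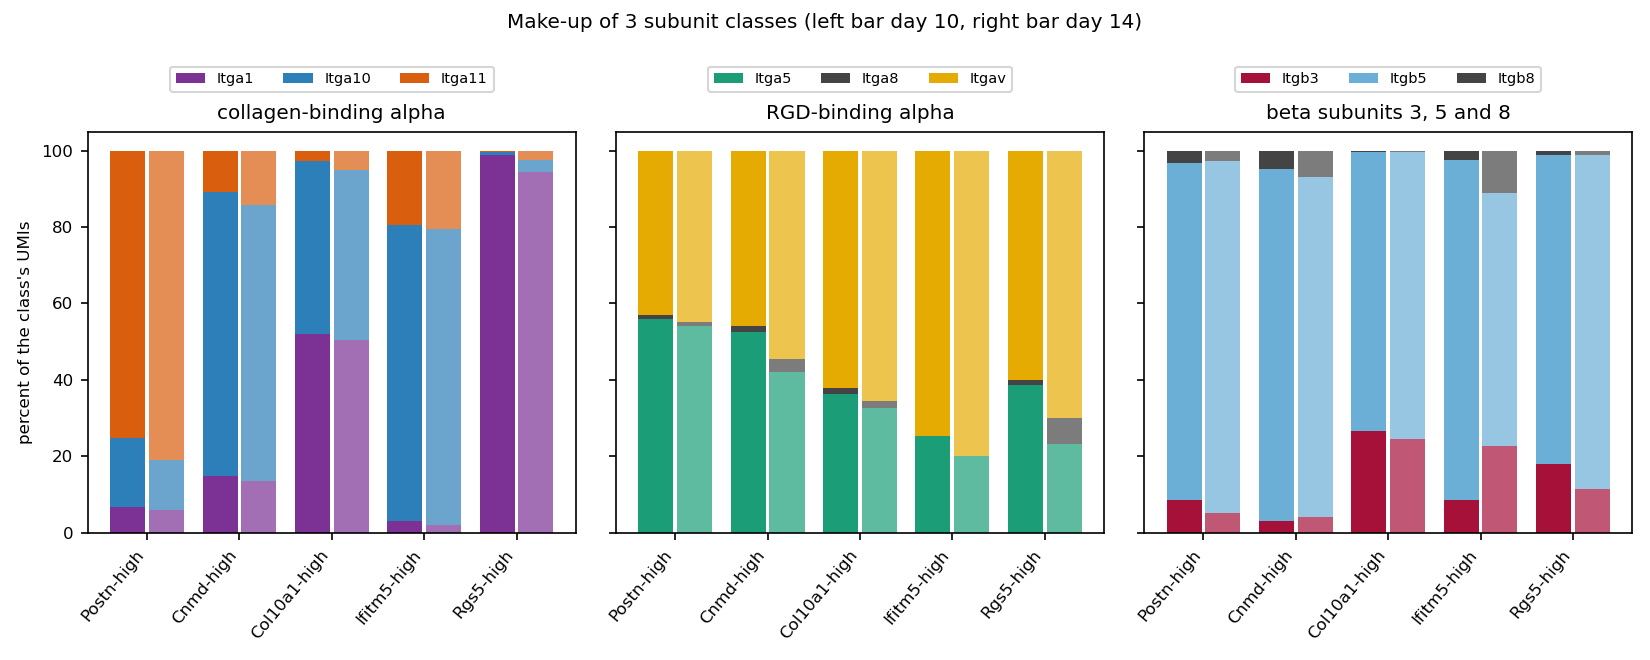
Share in percent of the UMIs of 3 subunit classes held by each gene in the 5 cell sets, with the left bar of each pair for day 10 and the right bar for day 14. The collagen-binding class is mostly *Itga11* in Postn-high cells (75.1% and 80.9%), *Itga10* in Cnmd-high and Ifitm5-high cells and *Itga1* in Rgs5-high cells, and the *Itgb3* share is 26.5% and 24.5% in Col10a1-high cells and 22.7% in Ifitm5-high cells at day 14.

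Collagen-binding alpha subunits were then set against RGD-binding ones within the same cells, as the log2 ratio of their summed UMIs, which does not depend on how CPM is scaled. Capture can differ between genes, so a ratio of 0 marks equal UMIs only, and the ratio is best compared across cell sets. At day 10 the ratio was -0.11 (-0.17 to -0.05) in Postn-high cells, from 3939 collagen-binding and 4245 RGD-binding UMIs. It was 0.63 (0.58 to 0.69) at day 14, from 6311 and 4072 UMIs, and -0.75 (-1.14 to -0.36) in the 34 cells of day 7. The sign of the ratio in Postn-high cells therefore differed between the libraries.

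In the other 4 sets collagen-binding subunits had more UMIs than RGD-binding ones on both later days. The ratio was 1.02 (0.965 to 1.077) and 1.17 (1.10 to 1.24) in Cnmd-high cells. It was 0.47 (0.33 to 0.62) and 0.86 (0.77 to 0.95) in Col10a1-high cells. It was 1.42 (1.14 to 1.70) and 1.67 (1.48 to 1.86) in Ifitm5-high cells and 1.83 (1.58 to 2.09) and 1.74 (1.59 to 1.90) in Rgs5-high cells.

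The order of the 5 sets was Rgs5-high, Ifitm5-high, Cnmd-high, Col10a1-high and Postn-high on both days. The intervals of Rgs5-high and Ifitm5-high cells overlapped on both days, and those of the other neighbours in the order did not. As means of both days, the ratios were 1.79, 1.54, 1.095, 0.67 and 0.26. The last, of Postn-high cells, joins days of opposite sign and was 0.10 with no upper limit on genes.

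**Figure D3:**
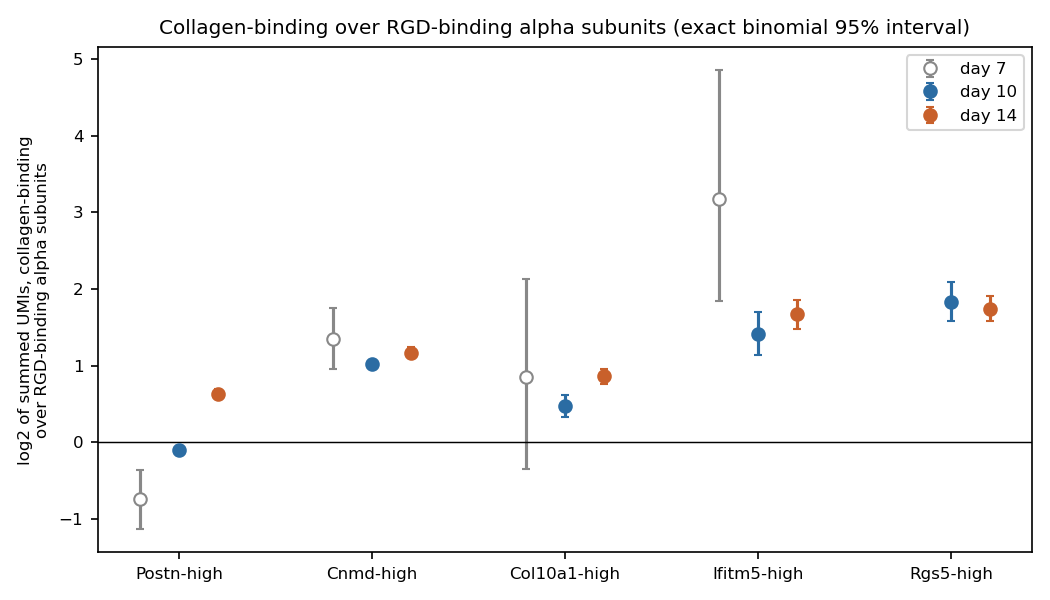
Log2 ratio of summed UMIs of *Itga1*, *Itga10* and *Itga11* over those of *Itga5*, *Itga8* and *Itgav* in each cell set and day, with exact binomial 95% intervals. Points above the line at 0 have more collagen-binding than RGD-binding UMIs. Postn-high cells lie at -0.11 at day 10 and 0.63 at day 14, and all other sets lie above 0 on both of those days.

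Each set was compared with Postn-high cells across all genes with at least 20 UMIs in both sets together on each day. A gene was called higher or lower where its log2 ratio of CPM, with 0.5 UMI added to each sum, was past 1 in the same direction on both day 10 and day 14. All 10 members passed the filter in each comparison. The 4 comparisons share the Postn-high cells.

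In Cnmd-high cells *Itga10* was called higher and 6 members lower (*Itga5*, *Itga11*, *Itgav*, *Itgb1*, *Itgb3* and *Itgb5*), where 5.38% of 13986 genes were called higher and 13.2% lower. The median log2 ratio was -1.16 over the members and -0.30 over all genes tested. *Itgav* and *Itgb1* lay just past the threshold, with log2 ratios of -1.003 and -1.04 at day 14, and neither was called with the genes over 1% of UMIs left out of the total, with the limits of the gates halved or as a mean over cells, which left 4 members lower. *Itgav* was also not called with cells of several gates kept, with no upper limit on genes or with no condition on *Ptprc*, nor *Itgb1* with cells thinned to 2000 UMIs, while the other 4 were called lower in all 12 alternatives.

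In Col10a1-high cells *Itga1* and *Itgb3* were called higher, with 7.7% of 13046 genes called higher. *Itga5*, *Itga11*, *Itgb1* and *Itgb8* were called lower, with 16.9% of genes called lower. The median was -0.41 over the members and -0.24 over all genes. Leaving out the genes over 1% of UMIs moved the median of all genes to -0.08 and took *Itgb1* off the list.

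In Ifitm5-high cells *Itga10* was called higher, with 3.82% of 12499 genes called higher, and *Itga1*, *Itga5*, *Itga11* and *Itgb5* were called lower, with 15.2% called lower. *Itga8* also passed the limit, but it had 0 UMIs against 44 and 37, the added 0.5 UMI sets its ratio, and its upper bound at day 10 is not 2-fold below Postn-high cells, so it is left out of the count. The median was -1.13 over the members, or -0.87 with *Itga8* at its upper bound, and -0.37 over all genes. *Itga1* was no longer called without the genes over 1% of UMIs, where the median of all genes was -0.16, with no upper limit on genes or with cells thinned to 2000 UMIs, while *Itga5*, *Itga11* and *Itgb5* were called lower in each of these.

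In Rgs5-high cells *Itga1* and *Itgb3* were called higher, with 8.6% of 12452 genes called higher, and *Itga11* was called lower, with 8.63% called lower. The day 14 level of *Itgb3* behind that call lay within the interval of the *Ptprc*-positive cells of its library, and the part of free transcripts in it was not tested. Those *Ptprc*-positive cells held the 5 osteoclast markers at a summed 153 CPM. At day 14 *Itgb3* was at 2.18 CPM in Cnmd-high, 8.94 in Postn-high, 9.04 in Ifitm5-high and 46.4 CPM in Col10a1-high cells. The median was 0.68 over the members and 0.06 over all genes. The counts of members called higher were thus 1 or 2 of 10 in each comparison beside 3.82% to 8.6% of all genes, and the 6 of 10, 4 of 10 and 4 of 9 called lower in Cnmd-high, Col10a1-high and Ifitm5-high cells stood beside 13.2% to 16.9%.

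**Figure D4:**
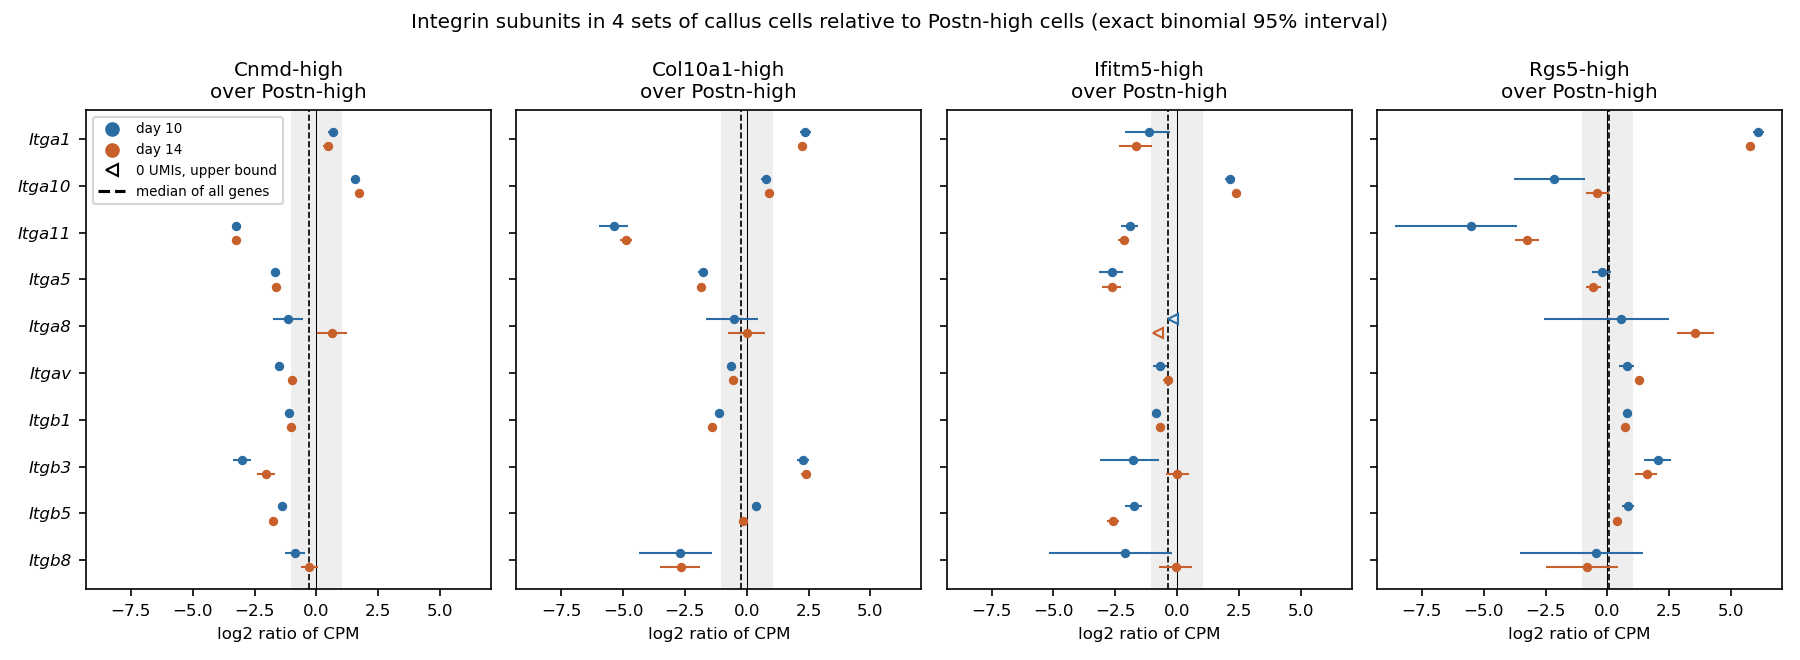
Log2 ratio of CPM of each member in 4 cell sets over Postn-high cells at day 10 (blue) and day 14 (orange), with exact binomial 95% intervals; the grey band spans a 2-fold difference either way, the dashed line is the median of all genes tested, and open triangles mark upper bounds where a set had 0 UMIs. *Itga1* lies at 6.10 and 5.77 in Rgs5-high cells, and *Itga11* lies left of the band in every panel.

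From day 10 to day 14 most members stayed within 2-fold. None of the 10 members passed a 2-fold difference in Postn-high, Cnmd-high or Col10a1-high cells, where 5.19%, 4.93% and 5.7% of genes did in either direction and 2.19%, 2.19% and 3.1% did upward. With 1 library a day no p-value exists for these counts. Within that range *Itga11* was higher at day 14 in Postn-high cells by a log2 ratio of 0.26 (0.19 to 0.32) and *Itgb5* by 0.34 (0.27 to 0.41), while *Itgav* was lower (-0.53, -0.63 to -0.44).

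In Ifitm5-high cells *Itgb3* and *Itgb8* passed 2-fold upward among 9 members tested, beside 2.32% of genes upward and 4.94% either way, on 7 and 2 UMIs at day 10. In Rgs5-high cells *Itga8*, *Itga10* and *Itga11* did so among 9 tested, beside 4.85% of genes upward and 8.09% either way, on 2, 5 and 2 UMIs at day 10. In the same Rgs5-high cells the bone gene *Ibsp* went from 122 to 1467 CPM between those days, and *Col2a1*, a cartilage gene, from 399 to 1085 CPM. The part of such transcripts in the *Itga10* and *Itga11* values was not tested.

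To see whether the levels depended on the limits of the gates, members were also measured in bins of the gate gene. Over all cells with 0 UMIs of *Ptprc*, *Itga11* was higher in each bin of *Postn* than in the bin before it, at 8.86, 14.5, 54.3, 120 and 153 CPM at day 10 and 10.1, 21.0, 88.4, 147 and 192 CPM at day 14. The bins were 0, up to 500, up to 2000, up to 4000 and above 4000 CPM of *Postn*. *Itga5* went from 36.4 to 123 CPM and from 19.1 to 84.4 CPM between the first bin and the last. *Itga10* ran the other way, from 95.7 to 35.0 CPM and from 83.7 to 25.9 CPM.

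Along *Cnmd* the directions of *Itga10* and *Itga11* were the other way round. *Itga10* went from 49.0 to 105 CPM at day 10 and from 48.0 to 90.6 CPM at day 14 between cells with 0 *Cnmd* and those above 2000 CPM. *Itga11* went from 106 to 13.1 CPM and from 108 to 13.7 CPM. Along *Col10a1*, *Itgb3* went from 8.47 to 50.2 CPM and from 6.88 to 42.5 CPM, and *Itga1* from 20.7 to 68.9 CPM and from 32.6 to 62.4 CPM.

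*Itga10* was at 79.0 and 59.1 CPM in cells with 0 *Ifitm5* and at 154 and 148 CPM above 1000 CPM of *Ifitm5*, while *Itgb5* went from 84.7 to 37.3 CPM and from 114 to 22.8 CPM. *Itga1* went from 22.9 CPM to 833 CPM at day 10 and from 23.0 to 679 CPM at day 14 along *Rgs5*. The bins between 250 and 2000 CPM of *Rgs5* held only 5 to 18 cells.

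**Figure D5:**
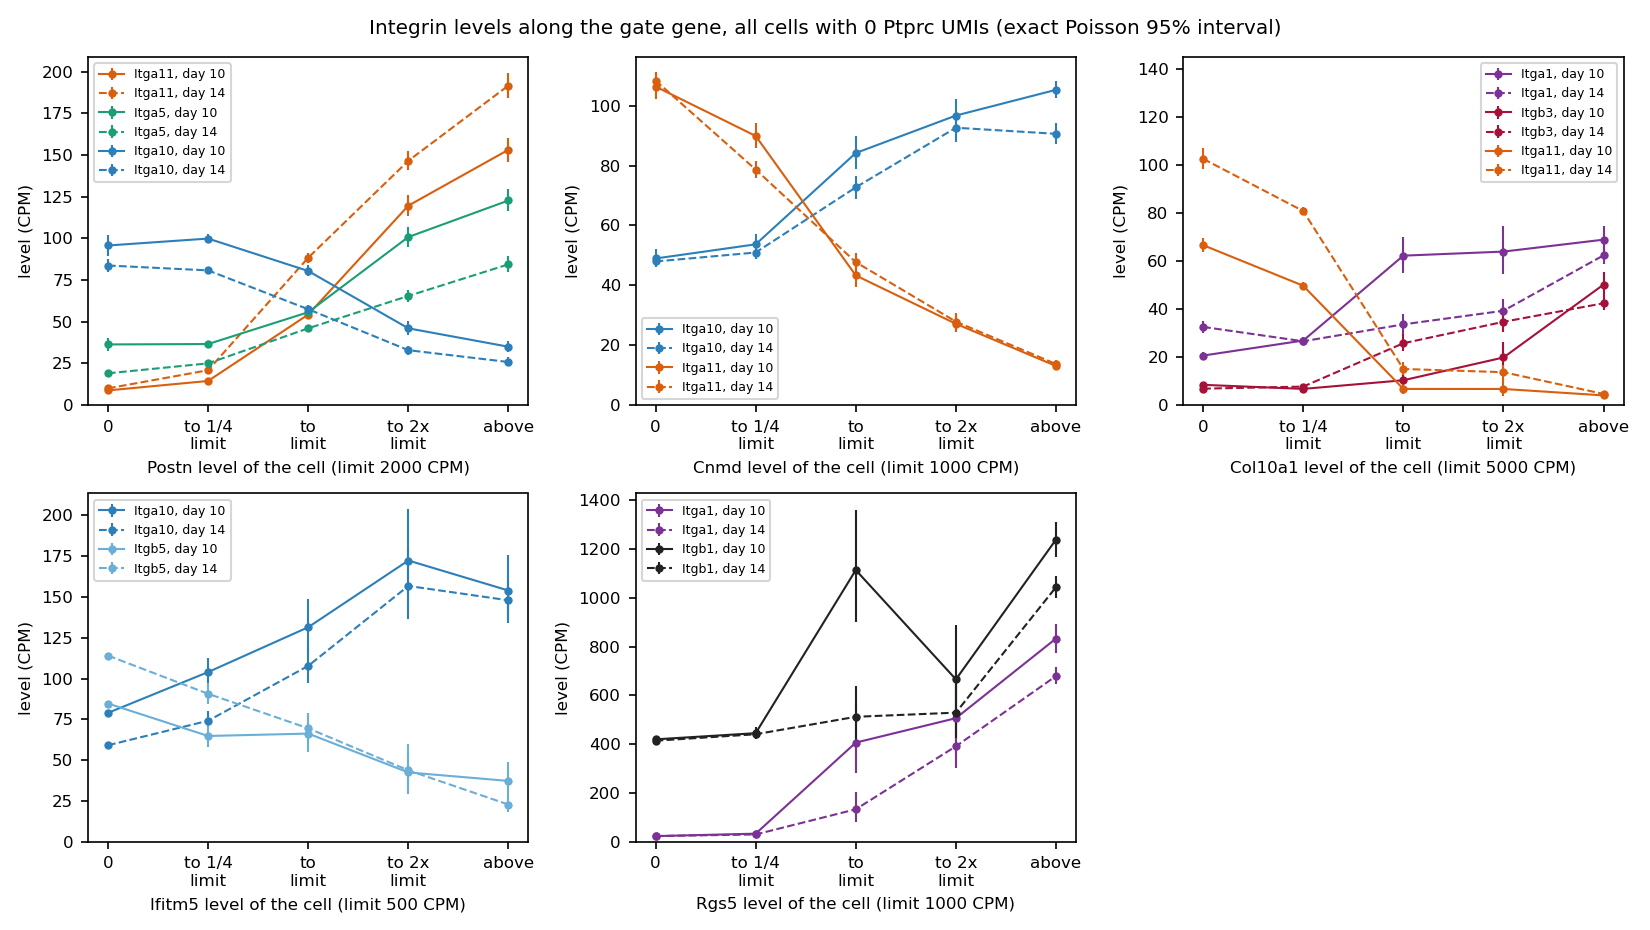
Level in CPM of selected members in bins of the level of each gate gene, over all cells with 0 *Ptprc* UMIs, with day 10 as full and day 14 as dashed lines and exact Poisson 95% intervals. *Itga11* is at 153 and 192 CPM in the highest *Postn* bin and at 13.1 and 13.7 CPM in the highest *Cnmd* bin, and *Itga10* runs opposite to it along both genes; the middle *Rgs5* bins hold 5 to 18 cells.

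How many cells held a UMI was counted after each cell was thinned to 2000 UMIs, because median depth ran from 9070 to 20604 UMIs between sets on days 10 and 14. Cells too shallow for this were left out of the thinned shares. *Itga11* was found in 24.2% (21.8% to 26.6%) and 29.4% (27.4% to 31.5%) of Postn-high cells, against 75.1% and 80.4% without thinning. *Itga10* was found in 25.5% and 27.7% of Ifitm5-high cells and in 19.0% and 17.6% of Cnmd-high cells. *Itga1* was found in 79.6% (65.7% to 89.8%) and 69.0% (61.8% to 75.6%) of Rgs5-high cells.

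*Itgb3* was found in 13.5% and 10.0% of Col10a1-high cells and *Itgb1* in 70.8% and 71.1% of Postn-high cells. In the *Ptprc*-positive cells of day 7 the median was 5089 UMIs, and 5950 of 6284 cells could be thinned. Their thinned shares were 0.0504% for *Itga11*, 0.286% for *Itga10*, 1.03% for *Itga1*, 3.87% for *Itgb3* and 4.92% for *Itgb1*. Of the 119 such cells of day 14, with a median of 8505 UMIs, 116 could be thinned. In the same order, their shares were 1.72%, 0.862%, 6.90%, 4.31% and 20.7%. The thinned share of *Itga11* at day 14 was 3.86% (3.03% to 4.84%) in Cnmd-high cells and 2.17% (0.595% to 5.47%) in Rgs5-high cells. The interval of the *Ptprc*-positive cells, 0.210% to 6.09%, is too wide to tell these shares from theirs.

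Of 18 other integrin genes, 9 or 10 passed the filter in each comparison. Against Postn-high cells, 2 were called higher and 2 lower in Cnmd-high cells (5.38% and 13.2% of all genes), 2 and 2 in Col10a1-high cells (7.7% and 16.9%), 1 and 2 in Ifitm5-high cells (3.82% and 15.2%) and 3 and 1 in Rgs5-high cells (8.6% and 8.63%). *Itga2*, a further collagen-binding alpha chain, was called higher in Col10a1-high cells, at 21.5 and 12.1 CPM against 1.24 and 1.82 CPM in Postn-high cells. *Itga6*, a laminin receptor chain, was called higher in Cnmd-high (20.2 and 15.9 CPM), Col10a1-high (30.8 and 19.6 CPM) and Rgs5-high cells (39.7 and 18.0 CPM).

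*Itga4* and *Itga7* were called higher in Rgs5-high cells, at 28.6 and 46.3 CPM and at 114 and 80.2 CPM, and *Itga4* also in Ifitm5-high cells, at 3.57 and 5.96 CPM. The day 14 level of *Itga4* in Rgs5-high cells lay within the interval of the *Ptprc*-positive cells of that day (31.2 to 53.3 CPM). So did the day 14 levels of *Itga6* in Cnmd-high, Col10a1-high and Rgs5-high cells (7.15 to 19.64 CPM). The part of free transcripts in these levels was not tested. For *Itga4*, the *Ptprc*-positive cells of day 7 had 62.7 CPM. At day 14 the sets other than Rgs5-high had 0.577 to 5.96 CPM of *Itga4*. *Itgbl1*, an integrin-like secreted protein with no transmembrane chain, was at 144 and 202 CPM in Postn-high cells, 79.6 and 98.5 CPM in Cnmd-high cells and 2.60 and 9.37 CPM in Col10a1-high cells. *Itgb4*, at 8.46 and 7.65 CPM, was called higher in Cnmd-high cells. *Itgbl1* was called lower in Col10a1-high, Ifitm5-high and Rgs5-high cells, *Itga2b* in Cnmd-high, Col10a1-high and Ifitm5-high cells and *Itga9* in Cnmd-high cells. The call of *Itga2b* in Ifitm5-high cells rests on 2 UMIs at day 10 and 1 at day 14. Its upper limit at day 10, 3.68 CPM, lies above the 2.52 CPM of Postn-high cells. In Ifitm5-high cells *Itga9* had 0 UMIs at day 10, with an upper bound of 1.88 CPM that is not 2-fold below the 3.71 CPM of Postn-high cells, so it is not counted there. *Itgb1bp1*, which binds the tail of β1, was at 21.5 to 60.2 CPM in the 5 sets on days 10 and 14. *Itgb2* and *Itgam*, leukocyte integrins, were at or below 0.543 CPM in all 5 sets on days 10 and 14.

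Inside the cell, integrin tails are tied to actin by talin, kindlin, vinculin and their partners. Of 18 genes of this adhesion complex, 17 passed the filter, and 8 were called lower and 2 higher in Cnmd-high cells (13.2% and 5.38% of all genes), 5 lower and 2 higher in Col10a1-high cells (16.9% and 7.7%) and 8 lower and 2 higher in Ifitm5-high cells (15.2% and 3.82%). *Vcl* (vinculin) was at 131 and 138 CPM in Postn-high cells, 19.2 and 21.5 CPM in Cnmd-high cells, 37.4 and 36.8 CPM in Col10a1-high cells and 23.4 and 19.4 CPM in Ifitm5-high cells. *Zyx*, *Actn1*, *Tln2* and *Parvb* were also called lower in all 3 sets, *Parvb* at no more than 5.69 CPM in Postn-high cells of days 10 and 14, and *Lims2* and *Fermt3* higher in all 3, the latter at no more than 8.20 CPM. The *Parvb* call in Ifitm5-high cells rests on 2 UMIs at day 10 (1.02 CPM) and 1 at day 14 (0.192 CPM).

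In Rgs5-high cells 4 of these genes were called higher and 0 lower, beside 8.6% and 8.63% of all genes. *Tns1* (tensin) was at 170.0 and 139 CPM against 25.8 and 35.9 CPM in Postn-high cells, and *Tln1* (talin) at 429 and 338 CPM against 182 and 156 CPM. *Ptk2*, the focal adhesion kinase, was at 89.0 and 72.0 CPM against 38.1 and 32.8 CPM, and *Lims2* at 4.77 and 10.3 CPM was the other one. The *Lims2* call rests on 3 UMIs at day 10. The interval of 3 UMIs in that set, 0.983 to 13.9 CPM, holds the 2.375 CPM of Postn-high cells. The median log2 ratio of the list was -1.17, -0.68, -0.74 and 0.69 in Cnmd-high, Col10a1-high, Ifitm5-high and Rgs5-high cells, beside the all-gene medians of -0.30, -0.24, -0.37 and 0.06.

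The genes of matrix proteins that these receptors bind were counted in the same way. Of 12 genes of RGD ligands, with 10 or 11 tested, 4 were called lower and 0 higher in Cnmd-high cells (13.2% and 5.38% of all genes) and 4 lower and 5 higher in Col10a1-high cells (16.9% and 7.7%). In Ifitm5-high cells 3 were lower and 4 higher (15.2% and 3.82%), and in Rgs5-high cells 4 were lower and 2 higher (8.63% and 8.6%). *Npnt* is left out of the latter count, since it had 0 UMIs in Rgs5-high cells at day 10 and its upper bound, 5.86 CPM, is not 2-fold below the 10.9 CPM of Postn-high cells. The list's median log2 ratio was -0.38, 0.04, 0.08 and, with *Npnt* at its bound, -1.60 in the order of those sets, beside all-gene medians of -0.30, -0.24, -0.37 and 0.06. *Spp1* (osteopontin) was at 29075 and 33004 CPM in Col10a1-high cells and 2222 and 3287 CPM in Postn-high cells. *Ibsp* (bone sialoprotein) was at 66790 and 61130 CPM in Ifitm5-high cells and 28474 and 17910 CPM in Col10a1-high cells, against 5313 and 3188 CPM in Postn-high cells.

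*Vtn* (vitronectin) was at 92.2 and 132 CPM in Rgs5-high cells and at or below 0.548 CPM in the others. *Fn1* (fibronectin), the ligand of α5β1, was called lower only in Rgs5-high cells, at 1192 and 1453 CPM, and lay between 2661 and 6884 CPM elsewhere. *Tnc*, a ligand of αv and α8 receptors, was highest in Postn-high cells, at 787 and 639 CPM. *Ltbp1*, which holds latent TGF-β, was at 139 and 155 CPM there, 1.59 to 53.0 CPM in the other sets, and *Tgfb1* was at 244 and 206 CPM in Col10a1-high cells and 228 and 222 CPM in Ifitm5-high cells.

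Of 11 collagen genes, 4 were called higher and 5 lower in Cnmd-high cells (5.38% and 13.2% of all genes), 3 and 5 in Ifitm5-high cells (3.82% and 15.2%) and 2 and 5 in Rgs5-high cells (8.6% and 8.63%). The 4 higher in Cnmd-high cells include the gate gene *Col10a1*, at 241 and 321 CPM against 66.3 and 125 CPM in Postn-high cells. Cells that also passed the *Col10a1* gate were left out of both sets, so this call is not independent of the gates. With *Col10a1* left out, 2 of 10 were called higher and 7 lower in Col10a1-high cells (7.7% and 16.9%). The list's medians were -1.02, 0.53, -1.30 and -2.66 in the order given, beside -0.30, -0.37, 0.06 and -0.24 over all genes. *Col4a1* and *Col4a2*, the basement membrane collagens, were at 5618 and 4779 CPM and at 2706 and 2423 CPM in Rgs5-high cells, the set in which *Itga1* was highest, and at 2.31 to 48.9 CPM and 1.73 to 33.2 CPM in the other sets.

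*Col2a1* was at 44108 and 37075 CPM in Cnmd-high cells. *Col1a1* was at 48354 and 45442 CPM in Ifitm5-high cells and 20540 and 20283 CPM in Postn-high cells. *Col3a1* and *Col5a1*, fibrillar collagens of soft connective tissue, were highest in Postn-high cells, the set in which *Itga11* was highest, at 15093 and 15477 CPM and at 1869 and 1667 CPM.

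Over the 10 combinations of cell set and day (days 10 and 14), which share their 2 libraries, the genes with the pattern most like each leading member were ranked by Pearson's r of log2(CPM + 10) among 9587 genes. For *Itga11* they were *Tmem150a* (0.98), *Porcn* (0.97) and *Spon1* (0.97), and for *Itga10* *Sgms2* (0.99), *Plcl2* (0.98) and *Lgr4* (0.97). For *Itga1* they were *Id4* (0.99), *Tinagl1* (0.99) and *Sept4* (0.98), and for *Itgb3* *Upf3a*, *Suds3* and *Mllt6* (0.98 each). Between members, *Itga10* and *Itgb5* ran most opposite (r = -0.92), and *Itgav* and *Itgb1* ran most alike (r = 0.92).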

How the data were processed

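The deposited matrices hold raw UMI counts per gene and cell, made by the authors with Cell Ranger on mouse build mm10 (GRCm38). The submitters' processing notes name version 3.0, and the matrix file headers 3.1.0. From these counts, cells with 500 to 5000 genes, at most 10% mitochondrial and at most 5% hemoglobin UMIs were kept. Cells with 0 *Ptprc* UMIs, at least 3 UMIs of a gate gene and a level past its limit formed the 5 sets. No doublet caller was run, and cells passing several gates (20, 327 and 378 at day 7, 10 and 14) were left out, as were cells over the upper gene limit.

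UMIs were summed over the cells of a set and divided by the set's total, so CPM is relative and matrix genes weigh on it. Intervals were exact Poisson for CPM, exact binomial for ratios and Clopper-Pearson for shares, all at 95%, and covered counting error only. Calls used a 2-fold difference on both day 10 and day 14. *Ptprc*-positive reference cells had at least 2 *Ptprc* UMIs and passed no gate. At day 10 only 4 cells with 38001 UMIs met this, too few for a reference, so day 10 levels were not set against such cells. The ratio step was tested on simulated data for Cnmd-high over Postn-high cells at day 14, where 99.5% of 200 changed genes among 14263 had the right direction and 95.7% of intervals held the true ratio.

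All 10 members were named. Other integrin genes were named above 20 CPM in any set, and further list genes as examples. Some examples, and *Itgb2*, *Itgam*, *Itgb4*, *Itga9* and *Itga2b*, were chosen after their values were seen. Members, lists and gate limits were chosen with earlier results of these data known. Alternatives changed the gate limits, the cell filters, the weighting of cells, the depth, the total used for CPM, the filter on low counts and the fold, and the bins of *Col10a1*, *Ifitm5* and *Rgs5* were added after the data were seen. Of the feature identifiers, 32158 of 32285 were in GENCODE M21. Python 3.11.15, numpy 2.4.6, scipy 1.17.1, pandas 2.3.3 and matplotlib 3.10.9 were used.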

Additional observations from a re-analysis of the deposited data

How the results depend on the processing

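Sets of cells were compared within each library, which pairs them by day. No paired analysis was possible between days because each day was 1 library. Of the values recomputed for the collagen-binding over RGD-binding ratios and the counts of members called, 135 stayed within their counting interval or within 1.5 times the count, 11 moved and 0 reversed. For small counts this limit is wide. A change from 6 to 4, as for members lower in Cnmd-high cells, did not count as moved. The mean log2 ratio in Postn-high cells was 0.26 and became 0.32 with cells of several gates kept, 0.10 with no upper limit on genes, 0.31 as a mean over cells and 0.31 with cells thinned to 2000 UMIs. In Cnmd-high cells it was 1.095 and became 1.00 with no upper limit on genes and 1.14 with thinning. In Col10a1-high cells it was 0.67 and became 0.81 with cells of several gates kept and 0.85 with *Itga2* counted as collagen-binding. Members called lower in Ifitm5-high cells were 5 with *Itga8* counted, and 3 both with no upper limit on genes and with thinning, where *Itga1* and *Itga8* were lost, *Itga8* not being tested with thinning. Members called higher in Rgs5-high cells were 2, and 5 at 1.5-fold, with *Itga8*, *Itgav* and *Itgb1* added. At 2-fold they were 3 in some alternatives. *Itga8* was added with the gate limits doubled, with cells of several gates kept and with no upper limit on genes. *Itgav* was added with thinning. The cause of these moves was not tested. Leaving out the 96 barcodes found in more than 1 library was an alternative chosen after seeing the data, and it moved none of these values. Depth limits *Itga8*, with at most 74 UMIs in any set and day, and, in the 51 Rgs5-high cells of day 10, *Itga8*, *Itga10*, *Itga11* and *Itgb8*, each with 5 UMIs or fewer.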
